A study of Mus musculus with 4 samples.

Results

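Neurotrophic factors are secreted proteins that nerve endings and their supporting cells read through membrane receptors. In mouse digit tips, 9 genes of this system were followed across cell classes, out of 33696 genes counted. They are the ligands Bdnf, Ntf3, Gdnf and Artn and the receptors Ngfr, Ntrk2, Ntrk3, Gfra1 and Ret, taken by gene symbol, and each symbol matched 1 gene in the files. Their identifiers are Bdnf ENSMUSG00000048482, Ntf3 ENSMUSG00000049107, Gdnf ENSMUSG00000022144, Artn ENSMUSG00000028539, Ngfr ENSMUSG00000000120, Ntrk2 ENSMUSG00000055254, Ntrk3 ENSMUSG00000059146, Gfra1 ENSMUSG00000025089 and Ret ENSMUSG00000030110.

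As background, BDNF acts through the kinase TrkB, which Ntrk2 encodes, NT-3 acts through TrkC, which Ntrk3 encodes, and the p75 receptor, which Ngfr encodes, binds all neurotrophins. GDNF and artemin belong to another family: GDNF binds the surface protein GFRα1 and artemin binds GFRα3, and either pair signals through the kinase RET. In skin and bone the sensory and sympathetic fibers that carry these receptors have their cell bodies outside the digit, so that the RNA of a digit reports the cells around the fibers. A count summed per gene does not tell the kinase forms of TrkB and TrkC from the truncated ones.

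Single-cell RNA libraries labelled P3 digit, after the last segment of the digit, came from female C57BL/6 mice 6-8 weeks old. The digits were severed high on the middle segment (P2), so that the libraries also hold tissue of P2 and of the joint. In one experiment mice ate chow with SAR131675, an inhibitor of the lymphatic growth factor receptor VEGFR3, at 30 mg/kg for 8 days, or a matched control diet, and in the other the lymph nodes of one limb were removed (LNR) or the operation was a sham. The time on the diet is that of the series text, and the methods describe chow from before amputation to the end of the study. Digits of 10 mice were pooled in each library, with 1 library per group, and the labels give each library a batch of its own, so that treatment and batch cannot be told apart. The study describes the opposite limb as the sham side, while the label of that library reads no treatment. Its methods describe cutting the tips of digits 2 and 4 and collecting digits 2 to 4, the labels do not state the amputation, and no library is labelled as unamputated. No group carries a transgene by its labels.

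The libraries kept 29076 SAR131675, 24030 control diet, 19827 LNR and 20669 sham cells, with median UMIs of 11316, 10712, 5725 and 5851. File headers name Cell Ranger 8.0.1 for the SAR131675 pair and 6.1.2 for the LNR pair, so levels are compared only within a pair. Kept barcodes shared within a pair numbered 210 and 101, and leaving them out moved no log2 ratio of the 9 genes by more than 0.009. Values are given below in the order SAR131675, control diet, LNR, sham unless a sentence names the libraries. CPM is the number of UMIs of a gene per 1000000 UMIs of a cell class in 1 library, and intervals are exact, at 95%, and cover counting error only. Cell classes were named from marker lists and are "like" classes: Schwann-like cells, with 289, 183, 106 and 115 cells, had Sox10 at 233, 285, 327 and 377 CPM, against 0.81 to 1.89 CPM over all kept cells.

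Neurons themselves were not seen as a class. Of 7 neuron markers, 6 (Rbfox3, Prph, Snap25, Nefl, Nefm and Scn9a) lay below 1 CPM over all kept cells in all 4 libraries, and only the tubulin Tubb3 was higher, at 3.79 to 9.45 CPM.

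The genes differed in the cells that held them. Among classes with at least 50 cells, Gfra1 and Ngfr were highest in Schwann-like cells and Ret in blood endothelial-like cells. Of the same classes, Ntrk2 and Ntf3 were highest in mural cells, the family of pericyte-like and smooth muscle-like cells. Ntrk3 was highest in synovial lining-like, dermal papilla and nail mesenchyme-like and mural cells. Most Bdnf UMIs lay in keratinocytes, the family with the most cells. The ligand Gdnf was found both in Schwann-like cells and pericyte-like cells and, by number of UMIs, in basal keratinocyte-like cells, which held 36.2% to 59.1% of them. The classes come from the same cells whose levels are given, so these differences are described and not tested.

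**Figure D1:**
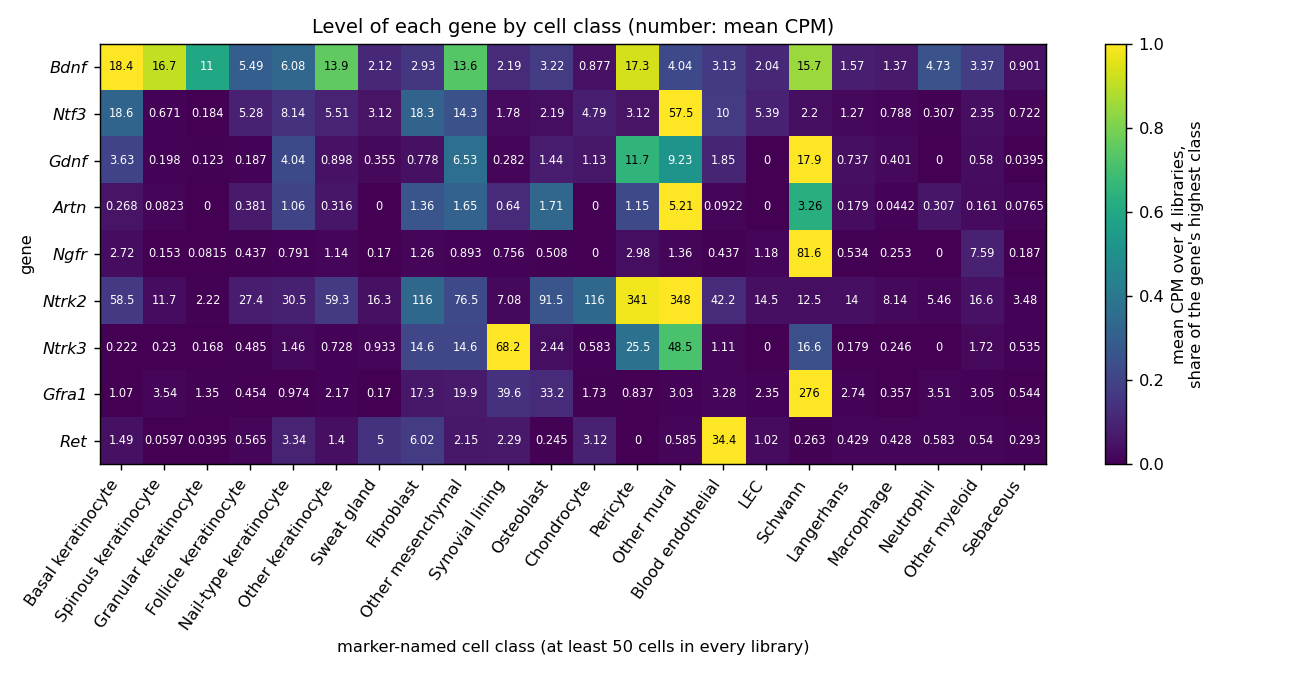
Heat map of the 9 genes (rows) against the cell classes with at least 50 cells in every library (columns). Numbers are the mean CPM over 4 libraries and colors scale each gene to its own highest class, so colors do not compare genes. The mean joins both pairs, so it orders classes within a gene and is not the level of either experiment. Gfra1 (276 CPM) and Ngfr (81.6 CPM) stand highest in Schwann-like cells and Ret (34.4 CPM) in blood endothelial-like cells.

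Among the ligands, Bdnf was counted 5586, 4367, 1309 and 1327 times, or 16.4, 16.4, 9.16 and 8.81 CPM over all kept cells. Keratinocytes held 82.4%, 89.2%, 78.8% and 81.5% of these UMIs. Their level was 19.7, 20.7, 12.7 and 11.5 CPM, only somewhat above that over all kept cells, since they are the largest family. Basal keratinocyte-like cells stood at 23.2 (22.2 to 24.1), 22.8 (21.7 to 23.9), 14.2 (12.8 to 15.6) and 13.6 (12.4 to 15.0) CPM. Spinous keratinocyte-like cells, the layer above, stood at 23.6, 24.9, 9.83 and 8.61 CPM. In SAR131675 and control diet the spinous value was the higher, with intervals that overlapped, and in LNR and sham the basal cells were the higher. No class led for Bdnf in most libraries. Schwann-like cells stood at 7.31, 30.5, 12.3 and 12.6 CPM from 12, 29, 2 and 2 UMIs, and only in control diet did they lead.

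Within the keratinocytes, Bdnf was concentrated in a few clusters that were alike in both experiments. Clusters led by Pthlh, a parathyroid hormone-related peptide, and by Rflnb and Krtap17-1 had the highest values: one, led by Col4a3, Col4a4, Rflnb and Pthlh, held 207 and 205 CPM in SAR131675 and control diet, and another, led by Krtap17-1, Pthlh, Ccer2 and Rflnb, 171 and 141 CPM in LNR and sham. A second kind, named basal keratinocyte-like and led by Grem1, a BMP antagonist, with Lhx2, Shisa2 and Cxcl14 among its leading genes, was larger. In the SAR131675 pair a cluster of that kind held 151 and 138 CPM and another 110 and 132 CPM, and in LNR and sham its counterpart held 103 and 105 CPM and 22.2% and 22.0% of all Bdnf UMIs. The clustering did not use any of the 9 genes. These clusters were picked by their Bdnf level and are a description.

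For the background from free RNA, neutrophil-like cells, which should lack the 9 genes, were read as well. Neutrophil-like cells had 4.93, 6.98, 0 and 7.02 CPM from 4, 3, 0 and 1 UMIs, at median depths of 2600, 2513, 1118 and 1028 UMIs. The share of cells with a Bdnf UMI was 13.9%, 13.2%, 8.13% and 7.71% of basal keratinocyte-like cells and 1.69%, 2.88%, 0% and 0.84% of neutrophil-like cells. After each cell was thinned to 2000 UMIs, 4.59%, 4.5%, 3.99% and 3.82% of basal cells still had one, against 0.725%, 1.12%, 0% and 0% of neutrophil-like cells.

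Ntf3, which encodes NT-3, was counted 5571, 3899, 749 and 637 times. It had a high level in few cells and a low level in many. All mural cells together, 645, 449, 596 and 478 cells, stood at 55.9 (49.3 to 63.1), 82.2 (72.6 to 92.6), 44.8 (35.7 to 55.5) and 35.6 (26.6 to 46.7) CPM. Within them Ntf3 belonged to the smooth muscle-like side: smooth muscle-like cells held 169, 253, 64.5 and 54.8 CPM, and pericyte-like cells 4.07, 0.889, 2.44 and 5.1 CPM. The smooth muscle-like class had 48 cells in each library of the SAR131675 pair. Of these, 29 in SAR131675 and 27 in control diet formed a cluster led by Cnn1, Acta2 and Mylk, with 61 and 83 Ntf3 UMIs. It was split from a cluster whose other parts included basal keratinocyte-like cells, so its place in the vessel wall is not known. The other smooth muscle-like cluster of that pair held 113 (73.7 to 165) and 157 (111 to 215) CPM. Intervals of the smooth muscle-like class and of the pericyte-like cells did not overlap in any library.

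By number of UMIs, basal keratinocyte-like cells held 59.3%, 57.4%, 27.4% and 30.6% of the Ntf3 UMIs, at 31.2, 29.7, 7.22 and 6.16 CPM. Spinous keratinocyte-like cells averaged 0.671 CPM over the 4 libraries. All keratinocytes together held 69.4%, 67.7%, 49.1% and 57.1% of the UMIs, so that in LNR and sham much of their Ntf3 lay outside the basal class. The level of all keratinocytes was 16.6, 14.0, 4.54 and 3.87 CPM. Over all kept cells it was 16.4, 14.7, 5.24 and 4.23 CPM, so these shares mark no raised level in the family as a whole. Fibroblast-like cells held 28.2, 25.8, 11.1 and 7.94 CPM. Neutrophil-like cells held 1, 0, 0 and 0 UMIs.

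High values of Ntf3 also came from clusters too small for the other comparisons. A cluster led by Ccer2, Cck and Krt20 and named Merkel-like, the touch-sensing cells of the epidermis, held 284 (114 to 586) and 148 (17.9 to 533) CPM in 6 LNR and 4 sham cells. A cluster without a name in the SAR131675 pair, also led by Ccer2, held 762 (586 to 975) and 348 (174 to 623) CPM in 9 and 4 cells, and all of those cells had an Ntf3 UMI. Smooth muscle-like clusters led by Cnn1 held 214 and 351 CPM in 29 SAR131675 and 27 control diet cells and 118 and 241 CPM in 14 LNR and 5 sham cells. All of these were singled out after their values were seen.

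Gdnf was counted 921, 696, 152 and 163 times. Schwann-like cells held 23.2 (16.4 to 31.8) CPM in SAR131675 and 35.8 CPM, with a lower bound of 24.8, in control diet, from 38 and 34 UMIs, and 1 UMI each in LNR and sham, where depth was too low to rank them. Pericyte-like cells held 12.9, 21.3, 7.32 and 5.1 CPM, whose intervals in the SAR131675 pair overlapped those of the Schwann-like cells. Basal keratinocyte-like cells were at 5.14, 5.34, 1.94 and 2.09 CPM but, being many, held 59.1%, 57.8%, 36.2% and 40.5% of the UMIs. Gdnf had 0 UMIs in the neutrophil-like and NK/T-like cells of all 4 libraries, which allows up to 3 UMIs, or 3.7 CPM in the neutrophil-like cells of SAR131675.

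Artn, the artemin gene, was counted 119, 95, 88 and 78 times. Mural cells stood at 4.71 (2.95 to 7.13), 4.91 (2.8 to 7.97), 3.73 (1.5 to 7.69) and 2.06 (0.424 to 6.01) CPM. Mesenchymal cells stood at 0.813, 1.1, 1.32 and 1.65 CPM and held 32.8%, 44.2%, 44.3% and 55.1% of the UMIs. The mural interval lay above the mesenchymal one in the SAR131675 pair, and they overlapped in LNR and sham. Values of 3 UMIs or fewer in a single class, as in Schwann-like cells (1, 0, 1 and 1 UMIs), are not ranked.

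**Figure D2:**
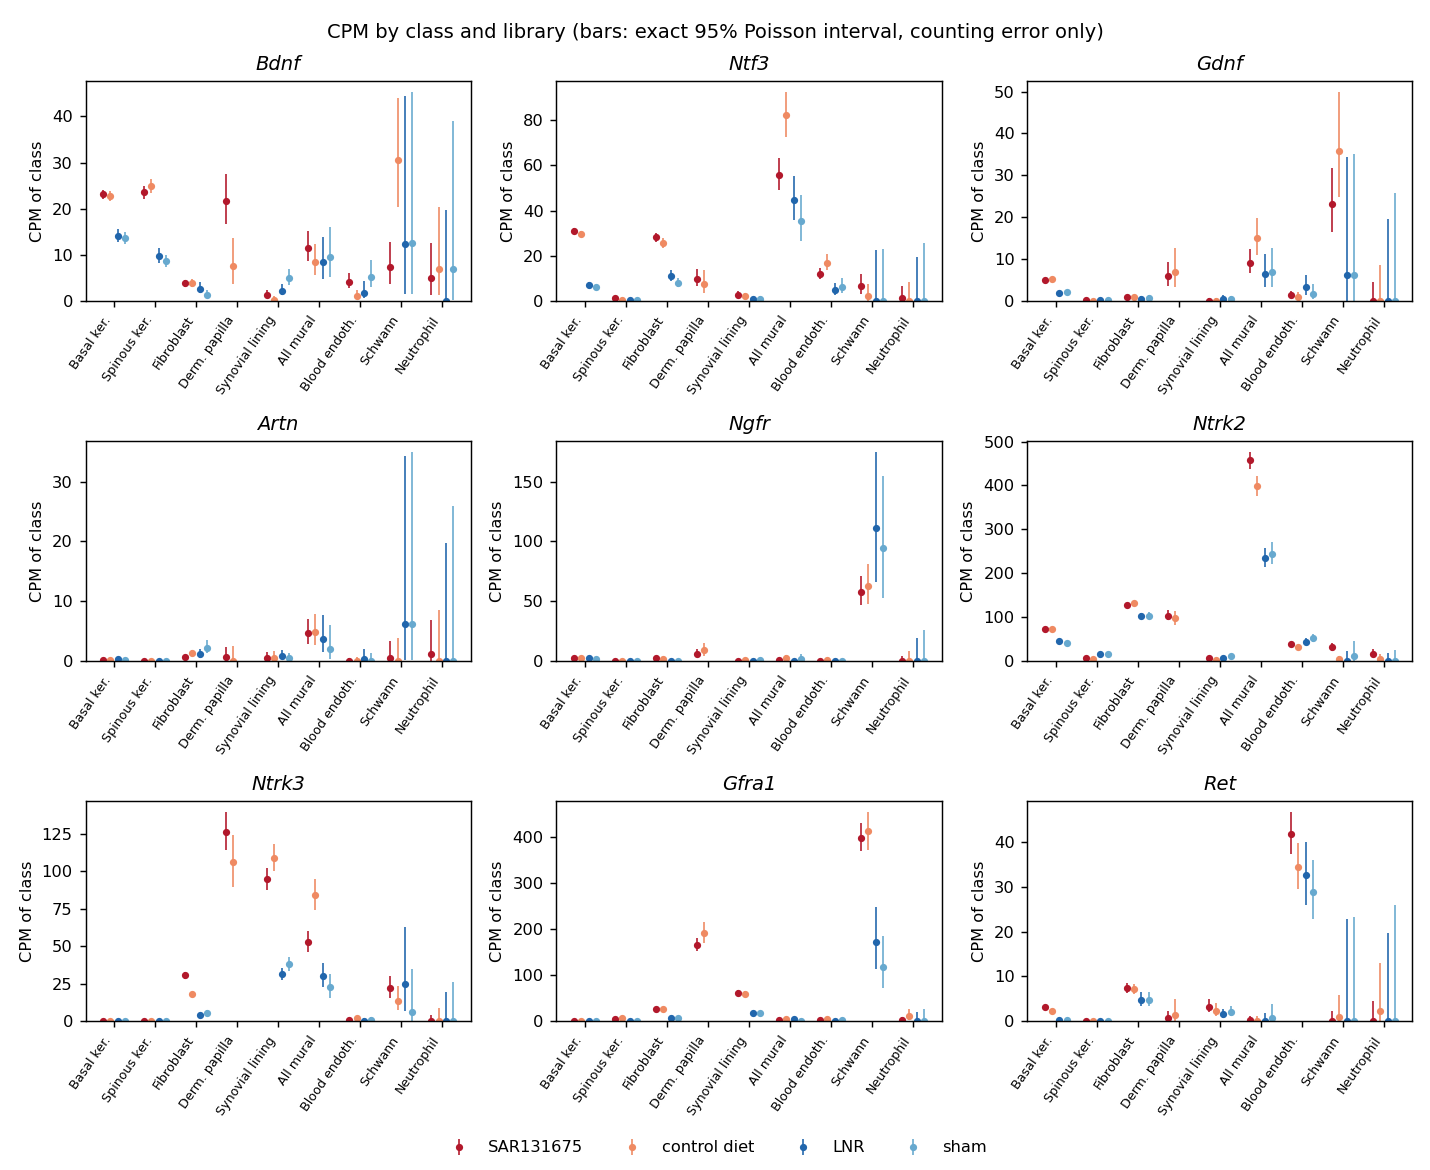
CPM (y axis, linear from 0, scaled per gene) of each gene in 9 cell classes (x axis) for the 4 libraries, with bars for exact 95% Poisson intervals. Classes with under 50 cells in a library, such as the dermal papilla and nail mesenchyme-like cells of LNR and sham, are not drawn. Of the classes drawn, Gfra1 and Ngfr stand highest in Schwann-like cells, Ntrk2 and Ntf3 in mural cells and Ret in blood endothelial-like cells in every library.

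Among the receptors, Ngfr, the gene of p75, was counted 670, 466, 178 and 188 times. Schwann-like cells led in all 4 libraries, at 57.9 (46.8 to 70.8), 63.2 (48.2 to 81.3), 111 (65.8 to 175) and 94.2 (52.7 to 155) CPM. An Ngfr UMI was found in 20.1%, 21.9%, 10.4% and 11.3% of them, and after thinning to 2000 UMIs in 8.98% and 7.95% of the cells left in SAR131675 and control diet. Only 18 LNR and 16 sham Schwann-like cells were deep enough to thin, of which 2 and 4 had an Ngfr UMI. The median depth of the class was 4734, 4325, 1290.5 and 1278 UMIs.

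By number of UMIs, basal keratinocyte-like cells were the larger store of Ngfr and held 49.4%, 50.4%, 37.6% and 38.3%, at 3.13, 3.12, 2.36 and 2.27 CPM. A basal cluster led by Tspear, Igfbp3, Fras1 and Lgr6 held 6.55 and 6.7 CPM in the SAR131675 pair. Myeloid cells with leading MHC class II genes and Mgl2 also had it, at 19.5 and 26.1 CPM in one such cluster of SAR131675 and control diet. Neutrophil-like cells had 0 UMIs in all 4 libraries.

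Ntrk2, the gene of TrkB, was counted 21633, 15594, 5926 and 5814 times. All mural cells stood at 458 (438 to 477), 399 (377 to 421), 235 (214 to 258) and 245 (221 to 272) CPM. A UMI was found in 64.2%, 63.0%, 43.5% and 46.0% of mural cells, and after thinning in 40.7%, 37.8%, 35.1% and 36.8%. Pericyte-like cells held 393, 416, 227 and 327 CPM. Smooth muscle-like cells held 58.1 (39.2 to 83.0), 41.7 (25.5 to 64.5), 271 (238 to 308) and 259.7 (222 to 302) CPM, with 48 such cells in each library of the SAR131675 pair, 247 in LNR and 195 in sham. The low values of the SAR131675 pair leave out a larger cluster led by Myh11, Acta2, Myl9 and Tagln. It was named mural but neither pericyte-like nor smooth muscle-like. That cluster held 784 (743 to 828) CPM in 210 SAR131675 cells and 635 (588 to 684) CPM in 127 control diet cells.

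Outside the mural cells, Ntrk2 came near or past mural levels in one kind of keratinocyte and in some small clusters of other classes. Clusters led by Ccl27a, Sostdc1 and Ptprz1, of which Sostdc1 encodes a BMP and Wnt antagonist, held 491 and 397 CPM and 391 and 376 CPM in the SAR131675 pair and 211 and 198 CPM in LNR and sham. Up to 94.5% of the cells of such a cluster had an Ntrk2 UMI. Among the small clusters, a mesenchymal one led by Sfrp2 and Chil1 held 581 and 448 CPM in 25 LNR and 41 sham cells. A fibroblast-like one led by Col11a1 and Lrrc15 held 349.9 and 476 CPM in 52 SAR131675 and 23 control diet cells. These were singled out by their Ntrk2 level. Fibroblast-like cells held 127, 132, 103 and 103 CPM, and basal keratinocyte-like cells 73.7, 73.3, 45.1 and 41.7 CPM. Spinous keratinocyte-like cells stood at 7.5, 5.96, 16.4 and 17.1 CPM. Schwann-like cells held 53, 5, 0 and 2 UMIs, and neutrophil-like cells 17.2 (9.43 to 28.9), 4.65, 0 and 0 CPM.

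BDNF and its receptor gene were also counted cell by cell. In basal keratinocyte-like cells of SAR131675, 1247 of 8945 cells had a Bdnf UMI, 3042 an Ntrk2 UMI and 351 both, so that Ntrk2 was found no more often in cells with Bdnf than in the whole class. Across 29, 26, 28 and 29 classes of a library, Pearson's r of log2(CPM + 1) between Bdnf and Ntrk2 was 0.48, 0.27, 0.45 and 0.23. For Ntf3 and Ntrk2 it was 0.63, 0.63, 0.74 and 0.76. Classes of a library share its depth and free RNA, so these values are a description.

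Ntrk3, the gene of TrkC, was counted 2543, 1715, 539 and 503 times and was low in keratinocytes, at 0.287, 0.292, 0.617 and 0.415 CPM. Synovial lining-like cells, which make the joint lubricant encoded by Prg4, held 94.5 (87.3 to 102), 109 (100 to 118), 31.3 (27.3 to 35.7) and 37.9 (33.5 to 42.7) CPM and 25.2%, 33.3%, 41.2% and 54.5% of all Ntrk3 UMIs. Dermal papilla and nail mesenchyme-like cells held 126 (114 to 139.6) and 106 (89.8 to 124) CPM in the SAR131675 pair, above the synovial lining in SAR131675 and overlapping it in control diet. In LNR and sham that class had 24 and 18 cells and 12 and 3 UMIs. Mural cells held 52.9, 84.0, 29.9 and 22.6 CPM, which overlapped the synovial lining in LNR only.

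Higher Ntrk3 levels stood in small fibroblast-like clusters led by Col11a1, Lrrc15 and Tnmd, a tendon gene: 392 and 317 CPM in 52 SAR131675 and 23 control diet cells, and 36.0 and 57.4 CPM in a cluster of 49 LNR and 57 sham cells led by the same 3 genes. NK/T-like cells held 7.1, 12.6, 0 and 0 CPM from 4, 5, 0 and 0 UMIs, and neutrophil-like cells 0 UMIs in all 4 libraries. In the smooth muscle-like cells of SAR131675 and control diet, 31 and 38 of 48 cells had an Ntf3 UMI, 23 and 21 an Ntrk3 UMI and 16 and 18 both, so that Ntrk3 was in 16 of 31 and 18 of 38 cells with Ntf3 against 23 and 21 of all 48. In LNR and sham 6 of 247 and 7 of 195 cells had both, so that Ntrk3 was in 6 of 49 and 7 of 27 cells with Ntf3 against 27 of 247 and 17 of 195 of all.

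Gfra1, the binding receptor of GDNF, was counted 3495, 2566, 720 and 661 times. Among classes with at least 50 cells, Schwann-like cells led in all 4 libraries, at 399.7 (369.7 to 432), 413 (373 to 456), 173 (115 to 249) and 119 (71.9 to 186) CPM. A Gfra1 UMI was found in 67.8%, 63.9%, 17.0% and 13.9% of them, and after thinning in 48.6% and 45.0% in the SAR131675 pair. In the 18 LNR and 16 sham cells deep enough to thin, 6 and 5 had one. Neutrophil-like cells had a UMI in 0.562%, 2.88%, 0% and 0% of cells.

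Some mesenchymal cells also carried Gfra1. Dermal papilla and nail mesenchyme-like cells held 166 (152 to 181) and 193 (171 to 217) CPM in the SAR131675 pair, under the Schwann-like cells with no overlap. In LNR and sham the 24 and 18 cells of that class held 163 (102 to 247) and 196 (101 to 343) CPM, which overlapped the Schwann-like cells. A UMI was found there in 62.5% and 55.6% of cells, against 17.0% and 13.9% of Schwann-like cells, and after thinning in 5 of 24 and 3 of 15 cells, against 6 of 18 and 5 of 16. A larger mesenchymal cluster of no named class, with Crabp1 and Rspo3 among its leading genes, was lower. It held 29.1 (18.5 to 43.7) and 32.1 (16.0 to 57.5) CPM in 125 LNR and 84 sham cells. Synovial lining-like cells held 62.6, 59.0, 18.3 and 18.5 CPM. A cluster of 35 LNR and 26 sham cells named nerve sheath fibroblast-like, with Slc2a1, the glucose transporter of the perineurium, among its leading genes, held 232 (175 to 301) and 219 (152 to 304) CPM, overlapping the Schwann-like cells. A cluster without a name led by Sfrp5, with 23 LNR and 28 sham cells, held 402 (238 to 635) and 267 (153 to 434) CPM. Osteoblast-like cells held 61.7, 44.2, 14.7 and 12.0 CPM. A tendon-like cluster led by Coch, Fmod and Tnmd held 257 and 222 CPM in 30 SAR131675 and 28 control diet cells. Pericyte-like cells had 1, 3, 0 and 0 UMIs.

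Ret, the signaling partner of Gfra1, was counted 1062, 648, 278 and 273 times, and its level was highest in another class than that of Gfra1. Blood endothelial-like cells led in all 4 libraries at 41.8 (37.2 to 46.7), 34.3 (29.5 to 39.7), 32.5 (26.0 to 40.0) and 28.8 (22.9 to 35.9) CPM, and held 28.7%, 28.2%, 31.7% and 29.7% of its UMIs. All keratinocytes, at 1.73, 1.15, 0.765 and 0.936 CPM, held 38.0%, 33.5%, 22.3% and 32.2%. Mesenchymal cells, which also held 1925, 1439, 507 and 448 Gfra1 UMIs, held 244, 188, 84 and 66 Ret UMIs. The largest blood endothelial-like clusters, led by Selp, Sele and Fabp4, with the selectins found on venules, held 45.8, 38.2, 42.5 and 33.6 CPM. A Ret UMI was found in 22.6%, 17.9%, 12.0% and 10.6% of blood endothelial-like cells, and after thinning in 7.16%, 5.68%, 7.57% and 5.43%. Neutrophil-like cells had 0, 1, 0 and 0 UMIs.

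In Schwann-like cells Ret had 0, 1, 0 and 0 UMIs. A count of 0 allows up to 1.83 CPM in SAR131675, far below the endothelial level, and up to 18.5 and 18.8 CPM in LNR and sham, where the shallow Schwann-like cells set a weak limit. Of all kept cells, 1471, 1099, 555 and 526 had a Gfra1 UMI, 701, 441, 239 and 233 a Ret UMI, and 47, 25, 5 and 9 both. Ret was thus in 47 of 1471, 25 of 1099, 5 of 555 and 9 of 526 cells with Gfra1. Among all kept cells it was in 701 of 29076, 441 of 24030, 239 of 19827 and 233 of 20669. The share with Ret was higher in cells with Gfra1 than in all cells in SAR131675, control diet and sham, and lower in LNR. Of 196 SAR131675 Schwann-like cells with Gfra1 none had Ret, and of 117 in control diet 1 had it.

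Ret had another place in keratinocytes. A cluster led by Lgr5, the stem cell gene of the hair follicle, with Slc7a8 and Fam13a, held 26.8 and 25.9 CPM in SAR131675 and control diet. Its counterpart in LNR and sham, led by Fam13a and Lgr5, held 9.52 and 13.1 CPM. A small cluster without a name, led by Krt75 and Foxe1, held 46.4 and 53.8 CPM in 59 SAR131675 and 26 control diet cells. The same cluster also held Gfra1, at 112 (91.0 to 136) and 25.3 (10.9 to 49.9) CPM. Fibroblast-like cells held 7.42, 7.14, 4.77 and 4.76 CPM.

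**Figure D3:**
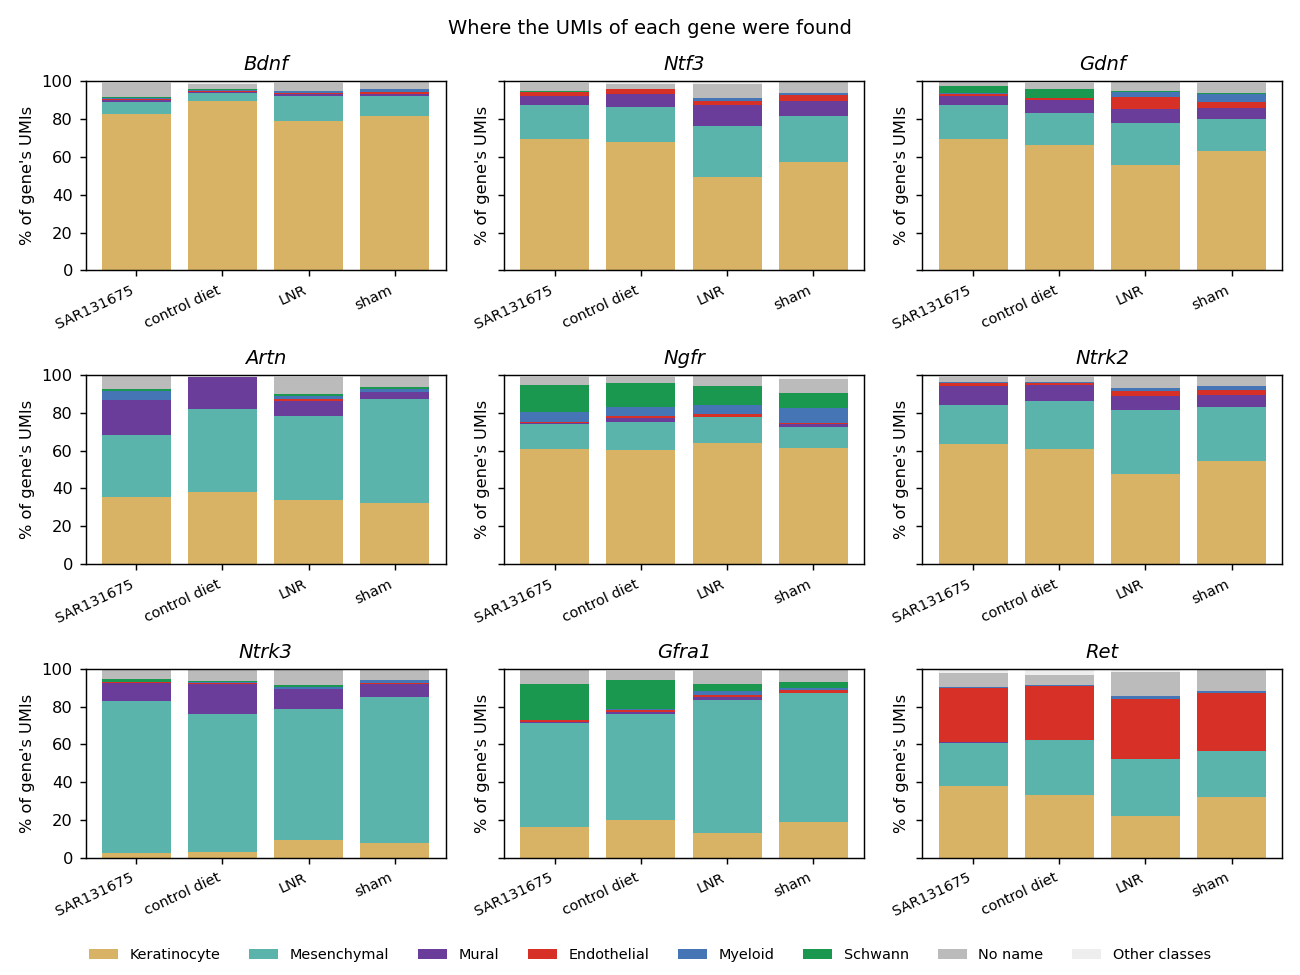
Stacked bars of where the UMIs of each gene were found, as percent of the gene's UMIs in a library (y axis) by family of cell classes (colors), for the 4 libraries (x axis). Keratinocytes hold 78.8% to 89.2% of Bdnf, mesenchymal cells 69.4% to 80.2% of Ntrk3, and Ret is split between keratinocytes, mesenchymal and endothelial cells. A share grows with the size of a family, so it is not a level.

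The genes whose levels over the classes were most like each member were found by mean Pearson's r of log2(CPM + 1) over 26 to 29 named classes in each of 4 libraries, among 18039 genes. For Gfra1 they were Gldn (0.837), Sema3b (0.832) and Pnma8b (0.822), and for Ngfr Adam11 (0.781), Synpr (0.763) and Frmpd3 (0.751). For Ntrk3 they were Pde1a (0.851), 1500009L16Rik (0.819) and Galnt16 (0.809), and for Ntrk2 Gpc3 (0.805), Gstm2 (0.79) and Gpc6 (0.787). Those of Ret were Jam2 (0.672), Gja5 (0.67) and Ccdc85a (0.668), of which Jam2 and Gja5 encode a junction protein and a connexin of endothelium. Those of Gdnf were Cyp7b1 (0.799), Egflam (0.779) and Arhgef17 (0.766), and those of Ntf3 Phldb2 (0.731), Trabd2b (0.73) and Klhdc8b (0.694). Artn had Mrgprf (0.666) and Rcan2 (0.656). Bdnf had the lowest values, with Kctd15 (0.629), Gm44837 (0.627) and Ptpn13 (0.617).

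The first comparison asked whether the diet with SAR131675 went with other levels of these genes. Over all kept cells, 0 of the 9 genes differed by 1.5-fold or more, against 6.79% of the 20601 genes with at least 50 UMIs in the pair. Log2 ratios lay between -0.03 (Artn) and 0.36 (Ret). Ret stood at 3.13 against 2.44 CPM, a log2 ratio of 0.36 (0.22 to 0.50), Ntrk3 at 7.49 against 6.45 CPM (0.21, 0.13 to 0.30), Ntf3 at 16.4 against 14.7 CPM (0.16, 0.10 to 0.22) and Ntrk2 at 63.7 against 58.7 CPM (0.12, 0.09 to 0.15). Bdnf stood at 16.4 CPM in both (0.00, -0.06 to 0.06). Intervals excluded 0 for 5 of the 9 genes. With 1 library per group these intervals hold no spread between mice, and no p-value can be given. In pooled cells, more cells of a type and more RNA per cell cannot be told apart.

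Within classes the directions differed. In keratinocytes, which hold most of its UMIs, Bdnf stood at 19.7 against 20.7 CPM with SAR131675 (log2 ratio -0.07, -0.13 to -0.01). In mesenchymal cells it stood at 7.78 against 5.17 CPM (0.59, 0.34 to 0.84), past 1.5-fold as were 7.03% of the genes tested there. Within these, fibroblast-like cells stood at 3.83 and 3.84 CPM, dermal papilla and nail mesenchyme-like cells, 394 and 254 in number, at 21.6 (16.7 to 27.5) and 7.62 (3.80 to 13.6) CPM, and mesenchymal cells of no named class at 20.6 (17.8 to 23.8) and 12.7 (10.3 to 15.5) CPM. The part of this makeup in the mesenchymal value was not tested. Ntf3 was 0.24 (0.17 to 0.31) in keratinocytes and 0.15 (0.01 to 0.29) in mesenchymal cells on the log2 scale. Ntrk2 was 0.21 (0.18 to 0.25) in keratinocytes, 0.52 (0.08 to 0.97) in myeloid cells and -0.12 (-0.18 to -0.06) in mesenchymal cells. Ntrk3 was 0.38 (0.28 to 0.48) in mesenchymal cells but -0.20 (-0.37 to -0.04) in the synovial lining among them, which turned to 0.28 with classes set by markers.

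In mural cells Ntf3 was lower with SAR131675, at 55.9 against 82.2 CPM (log2 ratio -0.56, -0.81 to -0.31), and so were Ntrk3, at 52.9 against 84.0 CPM (-0.67, -0.92 to -0.42), and Gdnf, at 9.2 against 15.0 CPM (-0.71, -1.33 to -0.09). Ntrk3 and Gdnf were past 1.5-fold there, as were 6.35% of the genes tested in mural cells. Ntrk2 stood at 458 against 399 CPM (0.20, 0.10 to 0.30). In the mural cells of neither class, with 1528 of the 2138 mural Ntrk2 UMIs in SAR131675, it was 0.22 (0.09 to 0.34), and this turned to -0.18 at Leiden resolution 0.7 and -0.17 without called doublets. Smooth muscle-like cells, where Ntf3 is high, were 48 of 645 mural cells in SAR131675 and 48 of 449 in control diet, and the part of this makeup in the mural values was not tested.

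In Schwann-like cells Gfra1 was 399.7 against 413 CPM (-0.05, -0.23 to 0.14) and Ngfr 57.9 against 63.2 CPM (-0.13, -0.61 to 0.36). Gdnf there was also past 1.5-fold, at 23.2 against 35.8 CPM, but with an interval that included 0 (-0.63, -1.34 to 0.08), and 11.5% of the 7531 genes tested in that class were past it. In blood endothelial-like cells Ret was 41.8 against 34.3 CPM (0.28, 0.01 to 0.56). In all endothelial cells Gfra1 was past 1.5-fold at 2.95 against 4.76 CPM, with an interval that included 0 (-0.69, -1.49 to 0.09), where 5.86% of genes tested were past it. In keratinocytes Ret was past it at 1.73 against 1.15 CPM (0.59, 0.35 to 0.83), as were 8.4% of genes tested there. In these cells the Lgr5 cluster had 936 SAR131675 and 490 control diet cells at 26.8 and 25.9 CPM of Ret, and the part of that share in the keratinocyte value was not tested.

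The second comparison asked the same of lymph node removal. Over all kept cells 0 of the 9 genes differed by 1.5-fold or more, against 3.68% of 17394 genes. Log2 ratios lay between -0.02 (Gdnf) and 0.31 (Ntf3). Ntf3 stood at 5.24 against 4.23 CPM (0.31, 0.16 to 0.46), Gfra1 at 5.04 against 4.39 CPM (0.20, 0.05 to 0.35) and Ntrk2 at 41.5 against 38.6 CPM (0.10, 0.05 to 0.16), and the intervals of the other 6 genes included 0 or met it. In mural cells Ntf3 was 44.8 against 35.6 CPM (0.33, -0.19 to 0.86) and Ntrk2 235 against 245 CPM (-0.06, -0.27 to 0.14). In keratinocytes Ntf3 was 4.54 against 3.87 CPM (0.23, 0.02 to 0.44) and Bdnf 12.7 against 11.5 CPM (0.15, 0.02 to 0.27). Ntrk3 was lower in mesenchymal cells, at 12.6 against 15.0 CPM (-0.25, -0.46 to -0.04), and in the synovial lining among them, at 31.3 against 37.9 CPM (-0.27, -0.54 to -0.01).

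Ntrk3 in the synovial lining was lower in the treated library of both experiments. It was 94.5 against 109 CPM with SAR131675 (-0.20, -0.37 to -0.04) and 31.3 against 37.9 CPM with LNR (-0.27, -0.54 to -0.01), while over all kept cells it was 0.21 and 0.18 higher. Both sizes are below 1.5-fold, and each rests on 1 library per group. When cells were put in classes by markers with no clustering, the SAR131675 value in synovial lining-like cells was 0.28.

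**Figure D4:**
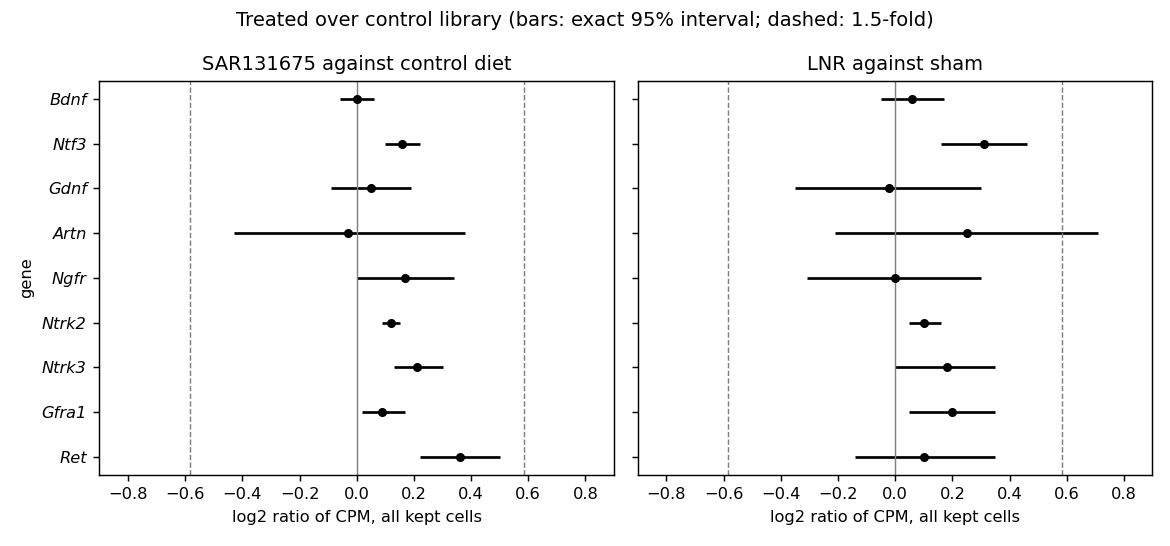
Log2 ratio of CPM over all kept cells, treated over control library (x axis), for the 9 genes (y axis) in the 2 experiments, with exact 95% intervals for counting error. Dashed lines mark 1.5-fold, and no point lies past them in either experiment.

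A wider list of 41 other genes was read, of which 37 had at least 50 UMIs in each pair. It holds ligands, receptors, adaptors and co-receptors and proneurotrophin processing genes. It also holds 6 genes of repair Schwann cells and 6 of myelin, which are not neurotrophic factors or receptors. With SAR131675, 4 were past 1.5-fold, all higher, and with LNR 3, all higher, where 6.79% and 3.68% of all genes tested were past it in either direction. The medians of the list were 0.09 and 0.08 on the log2 scale, against -0.01 and 0.02 over all genes. None was past it in both experiments. The genes past it were named after their values were seen. With SAR131675 they were the receptor gene Gfra3 (log2 ratio 0.95), the repair Schwann cell genes Shh (1.54) and Sox2 (0.82) and the myelin gene Mag (0.59). With LNR they were Gfra4 (0.68), Sorcs1 (0.69) and Dok6 (0.65).

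The partners of the 9 genes filled in the same map. Gfra3, the artemin receptor, stood at 229.7, 219, 209.6 and 258 CPM in Schwann-like cells and at 2.51, 1.3, 0.819 and 0.704 CPM over all kept cells. Of the 853 Gfra3 UMIs in SAR131675 and 346 in control diet, 377 and 208 lay in Schwann-like cells, 316 and 70 in cells without a class name and 137 and 58 in keratinocytes. The part of each in the difference was not tested. Gfra2 stood at 141, 135, 148 and 126 CPM in Schwann-like cells and 97.6, 97.5, 99.0 and 102 CPM in macrophage-like cells. Schwann-like cells thus carried 3 binding receptors of the GDNF family with 0 or 1 Ret UMI. Ncam1, which can serve as another partner of GFRα1, is in the list and stood at 21.7, 18.9, 13.3 and 11.4 CPM over all kept cells. That value joins all classes and is not the level of Schwann-like cells, and signaling was not tested.

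Of the other ligands, Nrtn, which encodes neurturin, stood at 147, 129, 212 and 232 CPM in granular keratinocyte-like cells and at 189.9, 198, 64.5 and 51.6 CPM in smooth muscle-like cells, of which the SAR131675 pair had 48 in each library. The granular cluster was led by Lce1 genes in the SAR131675 pair and by Hrnr, Lor and Flg in the LNR pair, so the experiments are not set against each other. Ntf5 stood at 17.7, 17.2, 12.3 and 10.7 CPM in basal keratinocyte-like cells and at 32.9 (19.2 to 52.7), 37.6 (22.3 to 59.4), 4.45 and 1.56 CPM in smooth muscle-like cells. In the SAR131675 pair 29 and 27 of these 48 cells were the Cnn1 cluster split from a cluster with basal keratinocyte-like cells. Sort1, the gene of sortilin, a co-receptor of p75, stood at 138, 147, 113 and 101 CPM in mural cells, and Gfra4 at 7.49, 8.89, 12.3 and 7.54 CPM there. Pspn, which encodes persephin, had 8, 7, 0 and 2 UMIs over all kept cells, of which 3, 4, 0 and 0 lay in endothelial cells, or 0.34 (0.0701 to 0.993) and 0.578 (0.157 to 1.48) CPM in the SAR131675 pair.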

How the data were processed

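The deposited values of the 4 libraries are raw counts of UMIs for each gene in each barcode, which the authors made with Cell Ranger. The submitters' processing notes give version 6.1.2 and build GRCm39, and the file headers 6.1.2 for the LNR pair and 8.0.1 for the SAR131675 pair. Cells with 200 to 5500 genes, at most 30000 UMIs and at most 10% mitochondrial UMIs were kept, the limits the study states for the LNR data. These limits kept 75.59% and 77.94% of the barcodes of SAR131675 and control diet, and 91.5% and 91.7% of LNR and sham. Over the gene limit were 15.09%, 12.92%, 1.36% and 1.24%, so the SAR131675 pair lost more of its gene-rich barcodes. Each pair was clustered apart (scanpy 1.11.5, 2000 variable genes, 30 principal components, 20 neighbors, Leiden resolution 2) without the 9 genes, the wider list and the lymphatic and osteoclast scoring genes. Clusters were named from marker lists. The members and lists were chosen with earlier results of these data known, and the scoring rule, the repeat clustering of mixed clusters and the names by family ("other mural") after seeing the clusters, without the members' values. Cells without a name numbered 2017, 1354, 1700 and 1538 in SAR131675, control diet, LNR and sham.

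UMIs were summed per class and library. Intervals are exact Poisson (CPM), Clopper-Pearson (shares) and exact conditional (log2 ratios), at 95%. They treat UMIs as independent, which makes them too narrow where few cells hold most UMIs of a gene. A class was ranked with at least 50 cells, a gene counted as past the fold at 1.5-fold with at least 50 UMIs in the pair, and a count of 0 allows 3 UMIs. No test was made, since each group has 1 library. All members and their partners were named, with up to 3 genes most like each, and some items are not reported here. Other clusters and genes were singled out after values were seen. The ratio functions were tested on simulated data. Doublets were left in. Scrublet called 4.67%, 0.907%, 7.41% and 6.97% of cells, against 23.3%, 19.2%, 15.9% and 16.5% expected from cell numbers. Alternatives were another resolution, classes by markers alone, called doublets removed, no upper limits, per-cell means, thinning, edgeR 4.0.16 TMM factors, other UMI minimums and 2-fold.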

Additional observations from a re-analysis of the deposited data

How the results depend on the processing

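No paired analysis was possible because each group has 1 library. For the same reason no library could be left out. Each gene was given 1 reference class by its level in the 4 libraries. That class was the highest in all 4 libraries for Gfra1, Ngfr and Ret, and in 2 for Ntf3, Gdnf, Ntrk2 and Ntrk3. It was the highest in 1 library for Artn and in 0 for Bdnf. The reference class stood above all kept cells in every library for 9 genes. This held for 7 under Leiden resolution 0.7, without called doublets and without upper limits. With classes set by markers alone it held for 5, and the cause was not tested. Each class was chosen for its level in these same libraries, which nearly fixes this count, so it is no sign of stability. After thinning, the share of cells with a UMI was larger in that class for 7 of 9. At resolution 0.7 and without called doublets, the reference class of Ntf3, Artn and Ntrk2 was smooth muscle-like or pericyte-like cells. These took the place of the mural cells of neither class, and the other 6 genes kept their class. With classes set by markers, and likewise without upper limits, 5 genes changed class, of which Ntrk3 changed family.

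Over all kept cells, 0 members were past the fold in either pair under TMM factors, 20 or 200 UMIs, 2-fold, no called doublets and no upper limits. In the reference class 1 member (Gdnf in Schwann-like cells) was past it with SAR131675, and 0 without called doublets, without upper limits, with 200 UMIs, at 2-fold or over all kept cells. Of the wider list, 2-fold left 1 with SAR131675 and 0 with LNR, and 200 UMIs left 1 with LNR. Counts of all genes past the fold were 2193 and 1265 with 20 UMIs, 636 and 234 with 200 UMIs and 346 and 139 at 2-fold, for SAR131675 and LNR, in place of 1398 and 640.

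Of 168 alternatives for CPM in the reference class, 98 stayed within the interval and 70 moved. Of 191 alternatives for single log2 ratios, 165 stayed within the interval and 9 turned the direction of a ratio whose interval excluded 0. With SAR131675, Ntf3 was 0.16 over all kept cells and -0.49 in other mural cells, Ntrk3 0.21 and -0.20 in the synovial lining (0.28 with classes set by markers), Gfra1 0.09 and -0.05 in Schwann-like cells, and Ntrk2 in other mural cells -0.18 at resolution 0.7 and -0.17 without called doublets. With LNR, Ntrk3 was -0.27 in the synovial lining and 0.18 over all kept cells. Leaving out shared barcodes and joining all mural cells were chosen after seeing the data and turned no ratio whose interval excluded 0. Of ratios whose interval included 0, joining changed the sign of Ntrk2 (0.30 to -0.06) and Artn (-0.40 to 0.86) with LNR.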
